A study of Homo sapiens with 30 samples.

Results

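The response of TMD8 cells to AZD8186 was described from 6 of the 30 RNA-sequencing libraries of a study of diffuse large B-cell lymphoma (DLBCL), chosen as every library that the sample labels assign to this cell line. TMD8 is a human DLBCL cell line of the activated B-cell-like (ABC) subtype. AZD8186, a small molecule that inhibits the β and δ catalytic isoforms of phosphoinositide 3-kinase (PI3K), was given at 0.5 µM, and the control cells received the solvent DMSO. The line was sampled at 6, 18 and 24 h, with 1 AZD8186 library and 1 DMSO library at each time and none at 12 h, so the 3 AZD8186 and 3 DMSO libraries form 3 pairs. The other 24 libraries came from the ABC line OCI-Ly10 and from HT and K422, lines of the germinal center B-cell-like (GCB) subtype. All 4 lines were selected by the study as AZD8186-sensitive. No source used here states whether the 3 times of an arm were separate cultures, so p-values measure the spread between these libraries only.

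Many ABC lymphomas depend on chronic active signaling of the B-cell receptor, whose CD79A and CD79B chains pass the signal to PI3K and, through BCL10 and MALT1, to the transcription factor NF-κB. PI3K makes the lipid messenger that recruits AKT to the membrane, and AKT keeps FOXO transcription factors out of the nucleus and feeds the growth kinase mTOR. NF-κB induces cytokines, survival genes and its own inhibitors, MYC drives ribosome production, and FOXO factors induce genes of quiescence.

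Libraries held 17694065, 19709317 and 23579029 expected counts in AZD8186 at 6, 18 and 24 h, against 16895329, 19480906 and 21416290 in DMSO, and 11214 of 21112 genes passed the filter on low counts. Ribosomal RNA took 1.69% to 4.35% of the counts in AZD8186, most at 6 h, against 0.816% to 2.69% in DMSO, and ribosomal protein genes took 23.2% to 26.0% against 17.7% to 23.4%. Log2 CPM, the counts scaled to a common library total, of the 6 libraries correlated at 0.97 to 0.99 over genes. The label was borne out by markers: all 6 B-cell and all 14 ABC markers reached a mean of 1 TPM, the length-scaled transcript unit, against 7 of 13 GCB markers. Of 15 T-cell markers in the files, 2 reached 1 TPM, GZMB and CD4, while the defining genes CD3D, CD2, CD8B and GZMA were at 0. Summed TPM of the T-cell markers were 459.7 to 1154 in AZD8186 and 546.0 to 919.4 in DMSO. Nearly all of this was GZMB, at 455.8 to 1149.9 TPM in AZD8186 and 543.4 to 916.9 TPM in DMSO. Of 14 myeloid markers 1, CD68, and of 18 stromal markers 3 reached 1 TPM. In bulk RNA, fewer cells of a kind and less RNA per cell cannot be told apart.

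AZD8186 lowered 138 genes (1.23% of those tested) and raised 265 (2.36%) over the 3 pairs in edgeR's quasi-likelihood test with time point as a term (Benjamini-Hochberg adjusted p under 0.05). Of these, 68 lower and 117 higher genes changed at least 2-fold, and 138 and 264 had the called direction in all 3 pairs. With 1 library per arm and time, a response that differs between the pairs counts as spread in this test. A gene that did not pass over the 3 pairs may thus still have responded at some times. The counts depended on which pairs entered: 7 genes were lower and 5 higher without the 18 h pair, and 6 and 19 without the 24 h pair. Without the 6 h pair, the 18 and 24 h libraries gave 1088 lower genes (9.7%) and 1364 higher genes (12.2%). With 1 residual degree of freedom that fit shared a single spread among genes of like level, so single genes at 18 and 24 h are given here from a fit that took the spread from all 30 libraries, which called 1046 and 1339. At TMM scaling 34.2% of the 3-pair calls were lower, against 86.5% on TPM (785 lower, 123 higher), where the median gene sat at −0.18 on the log2 scale. With each library centred on its median TPM, 127 were lower and 228 higher.

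The pairs were not alike. At 6 h, 465 genes (4.15%) were at least 2-fold lower and 499 (4.45%) at least 2-fold higher. At 18 h the counts were 243 (2.17%) and 426 (3.8%), and at 24 h 190 (1.69%) and 198 (1.77%). These counts carry no test, since each pair has 1 library per arm. Log2 ratios of the 18 and 24 h pairs correlated at 0.64 over genes, those of 6 and 18 h at 0.47 and those of 6 and 24 h at 0.35, where genes are not independent replicates. Median log2 ratios of all genes were 0.03, −0.01 and 0.0015 at 6, 18 and 24 h, and 52.8%, 49.2% and 50.2% of genes were above 0.

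**Figure D1:**
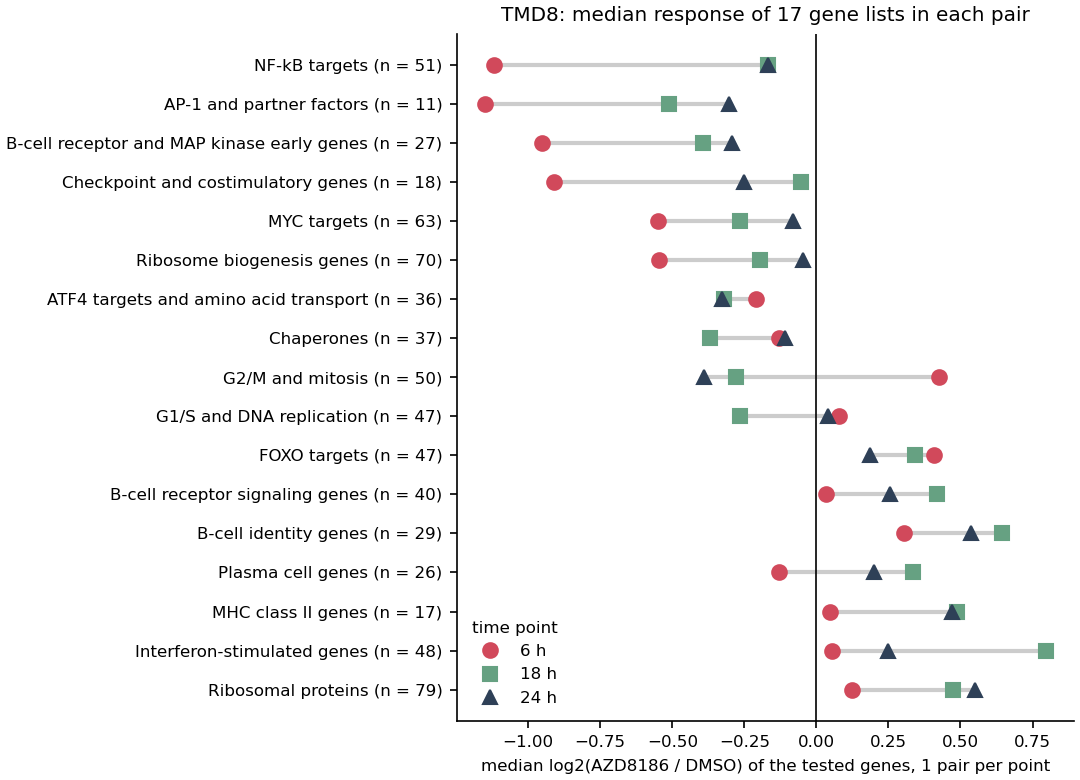
Median log2 ratio of AZD8186 to DMSO (horizontal axis) over the tested genes of 17 gene lists in the 6 h (circle), 18 h (square) and 24 h (triangle) pair, with a grey line over their range. AP-1 and partner factors and NF-κB targets are farthest left at 6 h, with medians of −1.15 and −1.12, and NF-κB targets are at −0.17 at 18 and 24 h, while G2/M genes lie right of 0 at 6 h (0.42) and left of it later (−0.28 and −0.39). On TPM, which is not drawn, the 6 h medians were −0.62 for AP-1 and partner factors and −1.12 for NF-κB targets.

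IL4I1, TNIP3, CCL22 and TNF had the largest falls over the 3 pairs among called genes at a mean of at least 5 CPM. IL4I1, a secreted amino acid oxidase that dampens T cells (chr19:49889654-49929539, GRCh38.p12), was at 10.8, 20.6 and 9.34 CPM in AZD8186 at 6, 18 and 24 h, against 428, 129.9 and 84.5 CPM in DMSO. The groups did not overlap, and the DMSO level was itself highest at 6 h. Its log2 fold change was −3.66 ± 0.47 (SE, edgeR adjusted p = 0.0129), and since its span overlaps NUP62 on the same strand, the split of reads between both genes is uncertain.

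CCL22, a chemokine that attracts CCR4-bearing T cells (chr16:57358772-57366190), was at 21.8, 12.8 and 12.0 CPM in AZD8186 and at 140.2, 65.1 and 54.1 CPM in DMSO. Every AZD8186 library lay below every DMSO library, with nearly the same ratio in each pair (log2 −2.68, −2.34 and −2.16). The log2 fold change of −2.40 ± 0.13 had the smallest adjusted p among NF-κB targets (edgeR, 0.00183). TNF, the inflammatory cytokine, was at 4.87, 8.89 and 5.38 CPM in AZD8186 and at 72.2, 26.0 and 17.6 CPM in DMSO (log2 fold change −2.34 ± 0.42, edgeR adjusted p = 0.0324). Its levels were low in all 3 AZD8186 libraries, whereas in DMSO the 6 h library stood above the later ones.

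The immune checkpoint gene PDCD1, which codes for PD-1, was at 5.66, 5.82 and 3.47 CPM in AZD8186 and at 21.3, 13.0 and 13.6 CPM in DMSO. Its ligand PD-L1, coded by CD274 (chr9:5450503-5470566), was at 6.39, 6.68 and 7.15 CPM in AZD8186 and at 21.0, 18.0 and 16.2 CPM in DMSO. Neither gene's groups overlapped, and both fell by more than 2-fold, PDCD1 with a log2 fold change of −1.67 ± 0.19 (edgeR, adjusted p = 0.00972) and CD274 with −1.43 ± 0.15 (edgeR, adjusted p = 0.00897). Of 18 tested checkpoint and costimulatory genes, 6 fell and none rose over the 3 pairs, where 1.23% and 2.36% of all genes did. The 6 were PDCD1, CD274, IL4I1, CD226, LILRB1 and LAG3. LAG3, an inhibitory receptor, was at 0.243 to 0.539 CPM in AZD8186 and 1.29 to 1.84 CPM in DMSO. The list's median log2 ratios were −0.91, −0.05 and −0.25 at 6, 18 and 24 h.

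The other genes among the 12 largest falls were TNIP3, TRAF1, EGR2, PALLD, ASB2, ABTB2, LMO2 and CD1C, with log2 fold changes of −2.42 (TNIP3) to −1.58 (CD1C) and adjusted p of 0.00766 (TRAF1) to 0.0493 (ABTB2) in edgeR. TRAF1, an adaptor of TNF receptors, was at 2.43, 2.58 and 1.74 CPM in AZD8186 and at 14.6, 8.21 and 8.95 CPM in DMSO. LMO2, a transcriptional adaptor that serves as a GCB marker, was at 7.73, 9.69 and 21.2 CPM against 46.3, 30.6 and 37.5 CPM in DMSO. None of the 12 genes overlapped between the groups, which the rule that chose them favours.

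**Figure D2:**
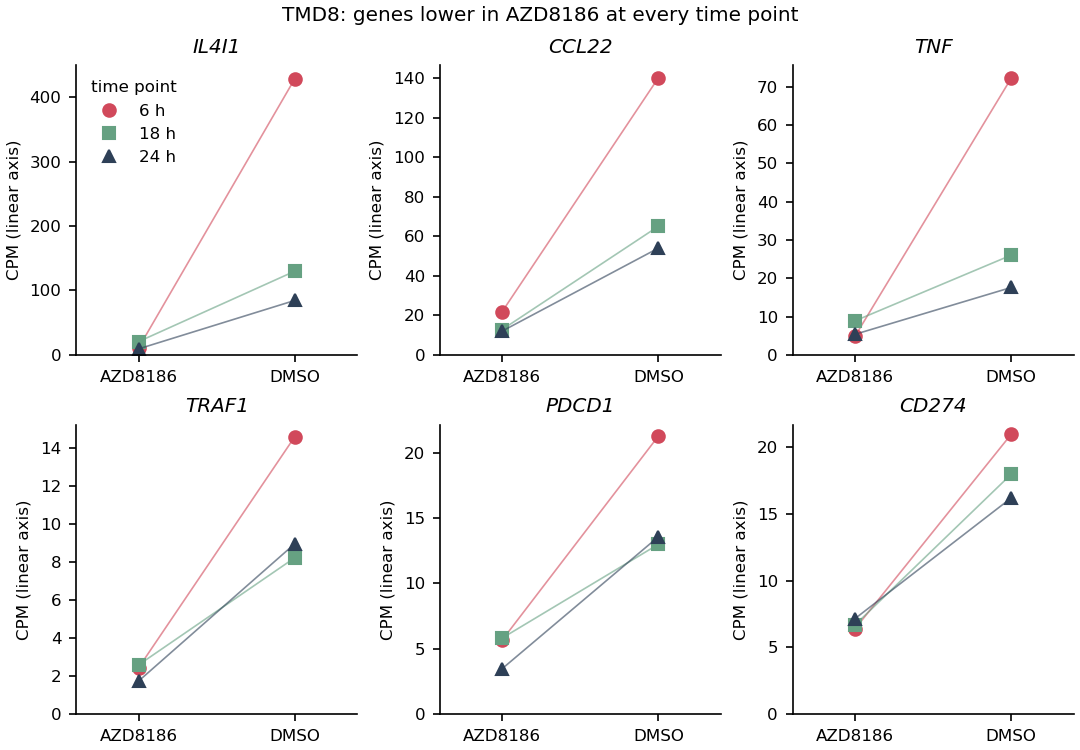
CPM (vertical axis, linear, from 0) of 6 genes in AZD8186 (left) and DMSO (right) libraries of TMD8, with lines joining the libraries of 1 time point. All 3 AZD8186 points lie below the 3 DMSO points in each panel, and the DMSO point at 6 h is the highest of its panel in every one. The 6 genes were called lower over the 3 pairs, which favours such a gap.

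NF-κB targets were farthest below DMSO at 6 h. Over the 3 pairs, 10 of 51 tested targets were lower, where 1.23% of all genes were, none was higher and 41 did not pass. The median log2 fold change was −0.38, where that of all genes was 0.0001. The 10 were CCL22, TNF, TRAF1, TNIP3, IL10, EBI3, BATF3, NFKBID, JUNB and SRGN. At 6 h 31 of the 51 were at least 2-fold lower and none at least 2-fold higher, where 4.15% and 4.45% of all genes were. The median log2 ratio was −1.12. At 18 and 24 h the median was −0.17 at each time. In the later pairs 20 were called lower and 9 higher, where 9.7% and 12.2% of all genes were. The list was chosen with earlier results of these data known, so its direction is not independent evidence.

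Of 18 tested cytokines and chemokines, 5 fell (CCL22, TNF, IL10, EBI3 and IL17F) and IL16 rose over the 3 pairs, where 1.23% and 2.36% of all genes did. The list's medians were −0.95, −0.26 and −0.30 at 6, 18 and 24 h. IL10, which signals through STAT3 in ABC cells, was at 8.70, 12.8 and 13.4 CPM in AZD8186 and at 45.2, 30.5 and 28.2 CPM in DMSO, with no overlap (log2 fold change −1.55 ± 0.24, edgeR adjusted p = 0.0229). In all 3 pairs EBI3, a subunit of IL-27 and IL-35, fell by 1.26 ± 0.13 on the log2 scale (edgeR, adjusted p = 0.00897). IL6 did not pass the filter and had 1, 7 and 2 counts in AZD8186 against 66, 4 and 10 in DMSO. The related ligands LTA and LTB, named after their values were seen, parted. LTA was at 5.42, 7.70 and 5.66 CPM in AZD8186 and 91.8, 18.3 and 12.8 CPM in DMSO, while LTB was at 23.6, 83.7 and 53.4 CPM in AZD8186 and 60.3, 18.9 and 11.4 CPM in DMSO. LTB was thus lower than DMSO at 6 h (log2 ratio −1.35) and higher at 18 and 24 h (2.14 and 2.22), and its response at 6 h differed from the later one by −3.54 ± 0.54 (edgeR, adjusted p = 0.000709).

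The inhibitors of NF-κB, which NF-κB itself induces, were below DMSO at 6 h as well. NFKBIA was at 34.6, 79.9 and 63.9 CPM in AZD8186 and at 128, 101 and 67.1 CPM in DMSO, so the gap between the arms was wide at 6 h and small at 24 h (log2 ratios −1.89, −0.34 and −0.07). NFKBID fell over the 3 pairs (log2 fold change −1.401 ± 0.29, edgeR adjusted p = 0.0486), and NFKBIE, at −0.78 ± 0.21, did not pass (edgeR, adjusted p = 0.0936). TNFAIP3, the deubiquitinase A20, had log2 ratios of −1.06, 0.04 and −0.04.

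Of the NF-κB subunits, NFKB1, the precursor of p50, was at 77.1, 131 and 129 CPM in AZD8186 and at 193, 129.7 and 112 CPM in DMSO, below DMSO at 6 h only. RELA was at 121, 133 and 126 CPM in AZD8186 and at 145, 123 and 116 CPM in DMSO, and neither its response over the 3 pairs (−0.01 ± 0.11; edgeR, adjusted p = 0.969) nor its 6 h difference (−0.38 ± 0.13, edgeR adjusted p = 0.0709) passed. Among survival genes, CFLAR had log2 ratios of −1.42, −0.50 and −0.38 and BCL2L1, which codes for Bcl-xL, had −1.16, 0.18 and −0.15. IRF4, a master factor of ABC cells, was at 411, 604 and 786 CPM in AZD8186 and at 701, 638 and 755 CPM in DMSO. None of CFLAR (adjusted p = 0.085), BCL2L1 (0.378) and IRF4 (0.391) passed over the 3 pairs in edgeR. For CFLAR this depended on the processing. It passed by DESeq2's own test, with no filter on low counts, on TPM and on centred TPM. It did not pass by limma-voom, at 5 CPM in 3 libraries or without the time term. CFLAR was at 51.5, 70.7 and 76.8 TPM in AZD8186 and at 202.5, 168.4 and 153.4 TPM in DMSO.

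Promoters of CCL22, NFKBIA and NFKB1 are shown because the 3 genes share a κB motif, in capitals, and yet responded over different spans of time. Each is the 200 bases before the gene's start, 5′ to 3′ on the gene's strand, from RefSeq's table of GRCh38.p14 (chr16:57358583-57358782, plus strand; chr14:35404750-35404949, minus strand; chr4:102501159-102501358, plus strand).
CCL22: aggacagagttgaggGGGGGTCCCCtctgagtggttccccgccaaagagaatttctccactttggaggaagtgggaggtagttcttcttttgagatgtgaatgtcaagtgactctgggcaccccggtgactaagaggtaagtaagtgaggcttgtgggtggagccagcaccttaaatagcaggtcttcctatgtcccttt
NFKBIA: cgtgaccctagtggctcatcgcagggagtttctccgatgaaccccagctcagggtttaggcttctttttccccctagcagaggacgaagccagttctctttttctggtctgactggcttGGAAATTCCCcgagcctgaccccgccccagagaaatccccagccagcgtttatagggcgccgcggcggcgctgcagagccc
NFKB1: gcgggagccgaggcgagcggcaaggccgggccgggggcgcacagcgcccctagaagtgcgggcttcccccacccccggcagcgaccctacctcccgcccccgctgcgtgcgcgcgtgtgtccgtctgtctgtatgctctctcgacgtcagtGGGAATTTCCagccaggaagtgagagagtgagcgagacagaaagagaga
In windows of 300 bases around the start, searched on both strands, the κB motif was found in 13 of 43 NF-κB targets that had a promoter in the table (30.2%), against 5.72% of all 27305 promoters and 6.39% of those of the tested genes. The 13 targets with a match had median log2 ratios of −1.32, −0.08 and −0.07 at 6, 18 and 24 h and the 30 without one −1.12, −0.21 and −0.19. A match is a description of the letters, not a site shown to be bound.

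Of 27 immediate targets of receptor and MAP kinase signals, 5 fell and 1 rose over the 3 pairs, where 1.23% and 2.36% of all genes did. The falls were NAB2, ETV4, IER3, EGR2 and KCNN4, and the rise was DUSP5, a phosphatase of ERK (log2 fold change 0.60 ± 0.11; edgeR, adjusted p = 0.0424). EGR2, an early growth response factor, was at 2.07, 1.88 and 1.49 CPM in AZD8186 and at 14.4, 6.12 and 5.91 CPM in DMSO (−2.17 ± 0.25, edgeR adjusted p = 0.00972). NAB2, its corepressor, fell alike in the 3 pairs, with log2 ratios of −1.11, −1.22 and −1.15, and so did ETV4, an ERK-induced factor (−1.94, −1.68 and −2.03). Medians of the list were −0.95, −0.39 and −0.29 at 6, 18 and 24 h. At least 2-fold lower were 13 of its members at 6 h, 8 at 18 h and 5 at 24 h, against 4.15%, 2.17% and 1.69% of all genes. On TPM the medians were −0.56, −0.35 and −0.39.

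Of 11 AP-1 genes and partner factors, 2 fell over the 3 pairs, where 1.23% of all genes did, and 9 did not pass. The list's medians were −1.15, −0.51 and −0.30 at 6, 18 and 24 h. On TPM the medians were −0.62, −0.67 and −0.49, where all genes had −0.05, −0.22 and −0.26. Less the median of all genes they were −0.56, −0.44 and −0.23, lowest at 6 h as at TMM scaling. JUNB was at 26.5, 25.8 and 23.1 CPM in AZD8186 and at 58.9, 38.9 and 39.0 CPM in DMSO (−0.83 ± 0.13; edgeR, adjusted p = 0.0232), and BATF3 fell by 1.25 ± 0.24 on the log2 scale (edgeR, adjusted p = 0.0424). JUN, at 12.1, 21.4 and 30.5 CPM against 52.7, 38.5 and 37.7 CPM in DMSO, lay below DMSO in every pair but did not pass (−1.06 ± 0.30, edgeR adjusted p = 0.105). JUND had log2 ratios of 0.15, 0.20 and −0.40. SGK1, a kinase of the AKT family, was at 2.98, 7.54 and 9.34 CPM in AZD8186 and at 17.5, 13.7 and 15.7 CPM in DMSO, with no overlap, and missed the threshold over the 3 pairs (−1.29 ± 0.32; edgeR, adjusted p = 0.0773).

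Genes that rose were led by NLRP7, a NOD-like receptor (chr19:54923509-54966312), at 16.98, 19.7 and 13.0 CPM in AZD8186 and 3.13, 0.896 and 0.999 CPM in DMSO. Its log2 fold change was 3.42 ± 0.34 (edgeR, adjusted p = 0.00766). Among called genes at a mean of at least 5 CPM the next largest were OLFML2A, LIME1, RUNX1T1, RCSD1, LNX1, SSPN, TMEM119, JCHAIN, MYH11, P4HA2 and CDK14, with log2 fold changes of 2.45 (OLFML2A) to 1.70 (CDK14) and adjusted p of 0.00542 (RCSD1) to 0.043 (MYH11 and CDK14) in edgeR. RUNX1T1, a transcriptional corepressor, was at 13.0, 8.24 and 8.15 CPM in AZD8186 and at 1.91, 1.89 and 2.58 CPM in DMSO. In each of the 12 the 3 AZD8186 libraries lay above the 3 DMSO libraries, which the rule that chose them favours. NLRP7, JCHAIN, LNX1, SSPN, MYH11 and P4HA2 overlap a gene on the opposite strand, and LIME1 and CDK14 one on the same strand, so their reads are uncertain where counting could mix them.

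The receptor chain CD79B (chr17:63928740-63932354) was at 449, 602 and 433 CPM in AZD8186 and at 149.97, 195 and 181 CPM in DMSO, without overlap between the groups (1.49 ± 0.11, edgeR adjusted p = 0.00542). An unnamed transcript lies on the same strand within its span. CD79A, its partner, was at 1165, 1429 and 976 CPM against 753, 813 and 665 CPM in DMSO (0.67 ± 0.11; edgeR, adjusted p = 0.0267). IRF8, a factor of B-cell development (chr16:85898803-85922609), was at 47.2, 63.5 and 43.0 CPM in AZD8186 and at 18.4, 17.9 and 18.5 CPM in DMSO (1.47 ± 0.14, edgeR adjusted p = 0.00766). TCL1A, a cofactor of AKT, was at 669.7, 1063 and 789 CPM in AZD8186 and at 374, 514 and 371 CPM in DMSO (0.99 ± 0.11; edgeR, adjusted p = 0.00897).

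Over the 3 pairs 11 of 29 B-cell identity genes rose and none fell, where 2.36% and 1.23% of all genes did. Among the 11 were MS4A1, CD37, POU2AF1, IKZF3, BLNK and TNFRSF13B beside those above. MS4A1 and TNFRSF13B lost the call on TPM, on centred TPM and at 5 CPM in 3 libraries. Both kept it by DESeq2's own test and by limma-voom. POU2AF1, a coactivator of immunoglobulin genes, was at 32.7, 84.0 and 66.9 CPM in AZD8186 and at 16.7, 36.3 and 38.9 CPM in DMSO. Within each pair it was higher in AZD8186 (log2 ratios 0.97, 1.21 and 0.78), although the groups overlapped. The list's medians were 0.30, 0.65 and 0.54 at 6, 18 and 24 h (0.21, 0.36 and 0.21 on TPM). At 18 and 24 h, 21 of 29 were higher and none lower, where 12.2% and 9.7% of all genes were. The response of 7 of the 29 was lower at 6 h than later, against 6.23% of all genes, CD22 and CD72 among the 7. CD22, an inhibitory coreceptor, was at 84.5, 184 and 199 CPM in AZD8186 and at 75.6, 62.2 and 78.4 CPM in DMSO (6 h difference −1.29 ± 0.21, edgeR adjusted p = 0.00098).

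**Figure D3:**
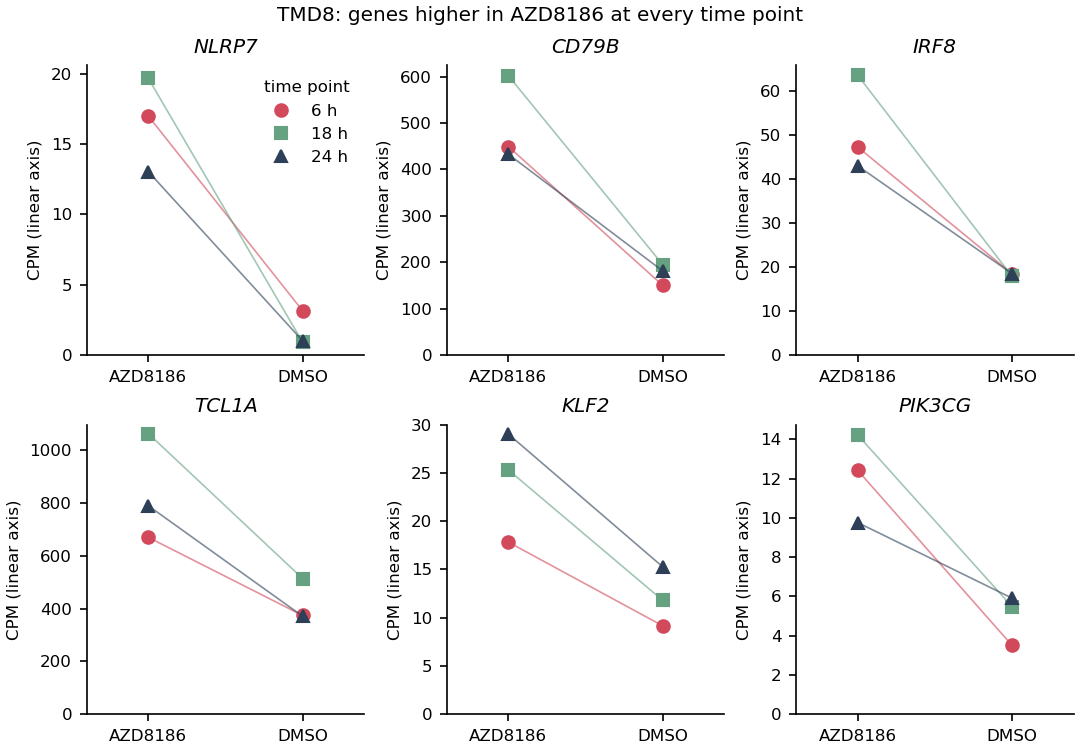
CPM (vertical axis, linear, from 0) of 6 genes in AZD8186 (left) and DMSO (right) libraries of TMD8, with lines joining the libraries of 1 time point. All 3 AZD8186 points lie above the 3 DMSO points in each panel, with NLRP7 at 13.0 to 19.7 CPM in AZD8186 and at most 3.13 CPM in DMSO. The 6 genes were called higher over the 3 pairs, which favours such a gap.

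Of 40 B-cell receptor signaling genes, 5 rose (CD79A, CD79B, FCRLA, BLNK and CBLB) and none fell over the 3 pairs. Of all genes 2.36% rose and 1.23% fell. At 18 and 24 h 19 were higher and 3 lower, where 12.2% and 9.7% of all genes were. Lower at 6 h than later were 9, against 6.23% of all genes. PTPN6, the phosphatase SHP-1 and named after its values were seen, was at 115, 346 and 328 CPM in AZD8186 and at 484, 430.1 and 463 CPM in DMSO. It was below DMSO at every time, and farthest below at 6 h (log2 ratios −2.08, −0.31 and −0.50). Of 26 plasma cell genes 4 rose and none fell over the 3 pairs, where 2.36% and 1.23% of all genes did. The 4 were TNFRSF17, which codes for BCMA (1.58 ± 0.20; edgeR, adjusted p = 0.012), MZB1, CREB3L2 and JCHAIN. JCHAIN, which links antibody polymers, was at 248.6, 572 and 390.1 CPM in AZD8186 and at 152, 121 and 79.1 CPM in DMSO, with a smaller log2 ratio at 6 h (0.71) than at 18 h (2.24) and 24 h (2.30). On TPM the medians over the 3 pairs of the receptor signaling and plasma cell lists changed sign, 0.21 against −0.02 on TPM and 0.19 against −0.03 on TPM, and were 0.17 and 0.15 on centred TPM.

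FOXO targets rose in 12 of 47 and fell in none, where 2.36% of all genes rose and 1.23% fell. KLF2, a factor of lymphocyte quiescence, was at 17.8, 25.3 and 29.03 CPM in AZD8186 and at 9.16, 11.8 and 15.3 CPM in DMSO, with no overlap and like ratios in each pair (0.996 ± 0.12, edgeR adjusted p = 0.0105). RNF144B (0.91 ± 0.10, adjusted p = 0.0095), YPEL5 (1.10 ± 0.14, adjusted p = 0.0122) and PDCD4 (0.76 ± 0.10, adjusted p = 0.013) rose in edgeR as well, as did TXNIP, YPEL3, KLHL24, CAT, BTG1, BTG2, CBLB and BCL2L11. BCL2L11, which codes for the pro-apoptotic BIM, was at 148, 176 and 171 CPM in AZD8186 and at 119, 101 and 113 CPM in DMSO (0.57 ± 0.11; edgeR, adjusted p = 0.0451). The BCL2L11 call was lost on TPM, on centred TPM and at 5 CPM in 3 libraries. It was kept by DESeq2's own test, by limma-voom and with no filter on low counts. Medians of the list were 0.41, 0.34 and 0.19 at 6, 18 and 24 h. On TPM they were 0.23, 0.04 and −0.11, where all genes had −0.05, −0.22 and −0.26, and 5 of the 47 were higher and 1 lower. Less the median of all genes they were 0.28, 0.26 and 0.15. On centred TPM the list's median over the 3 pairs was 0.19, with 10 higher and none lower.

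Genes of the PI3K pathway itself moved both ways, 2 lower and 4 higher of 40, where 1.23% and 2.36% of all genes were. PIK3CG, the γ catalytic isoform (chr7:106865278-106907145), was at 12.4, 14.2 and 9.76 CPM in AZD8186 and at 3.50, 5.48 and 5.91 CPM in DMSO (1.28 ± 0.22, edgeR adjusted p = 0.0299). The isoforms that AZD8186 inhibits did not pass, PIK3CB at −0.18 ± 0.12 (edgeR, adjusted p = 0.412) and PIK3CD at −0.02 ± 0.13 (edgeR, adjusted p = 0.949), nor did PIK3CA (0.49 ± 0.15; edgeR, adjusted p = 0.12). PIK3CA was higher at 18 and 24 h (0.63 ± 0.13; edgeR, adjusted p = 0.00242). PIK3R1, the regulatory subunit p85α, rose by 0.68 ± 0.10 on the log2 scale (edgeR, adjusted p = 0.0202), as did INPP5D (SHIP1) and PIK3AP1 (BCAP). GAB2 (−0.95 ± 0.16, edgeR adjusted p = 0.0276), an adaptor, and PIK3R5 (−0.67 ± 0.11; edgeR, adjusted p = 0.0287), a regulatory subunit that pairs with PIK3CG, fell.

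Of 36 ATF4 targets and amino acid transport genes 6 fell and 2 rose over the 3 pairs, where 1.23% and 2.36% of all genes did. ATF4, the factor of the amino acid response, was at 115, 107 and 99.7 CPM in AZD8186 and at 146, 177 and 152 CPM in DMSO (−0.56 ± 0.10, edgeR adjusted p = 0.0378). WARS, a tRNA synthetase, fell by 0.78 ± 0.09 (edgeR, adjusted p = 0.00995), and MTHFD1L, CARS, CHAC1 and SLC7A1 fell too, whereas the transporters SLC1A4 (1.10 ± 0.13; edgeR, adjusted p = 0.0107) and SLC7A11 rose. Later, 17 of the 36 were lower and 4 higher, where 9.7% and 12.2% of all genes were, so the share of higher genes was near that of all genes. In fatty acid synthesis, FASN was at 168, 260.1 and 332 CPM in AZD8186 and at 403, 399.8 and 489 CPM in DMSO (−0.81 ± 0.15, edgeR adjusted p = 0.0376). ACACA fell too and TM7SF2 rose, and the other 32 of 35 sterol and fatty acid genes did not pass. Of 27 glycolysis genes HK1 alone passed over the 3 pairs (−0.52 ± 0.09; edgeR, adjusted p = 0.0324), with 11 lower and 5 higher at 18 and 24 h. No chaperone of 37 passed over the 3 pairs, and 15 were lower and 1 higher later. The later counts of the glycolysis genes and chaperones stand beside the same shares of all genes, 9.7% lower and 12.2% higher.

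Of 24 homing and adhesion genes GPR183 fell, and CEACAM1 and PECAM1 rose, where 1.23% of all genes fell and 2.36% rose. GPR183, a receptor that guides B cells in follicles, was at 25.9, 22.9 and 21.4 CPM in AZD8186 and at 54.0, 49.0 and 40.7 CPM in DMSO (−1.03 ± 0.10, edgeR adjusted p = 0.00766). CEACAM1 was at 5.96, 7.05 and 4.76 CPM in AZD8186 and at 0.615, 0.846 and 0.666 CPM in DMSO (3.03 ± 0.24; edgeR, adjusted p = 0.00542). Among 19 germinal center genes 3 fell (LMO2, DENND3 and KLHL6) and 2 rose (TCL1A and KLHL14), beside the same shares of all genes. Of 31 apoptosis genes BID fell and BCL2L11 rose, near the 1.23% and 2.36% of all genes. A list of 20 held cyclin D genes, CDK inhibitors and other inhibitors of proliferation. BTG1 and BTG2, of the last kind, rose, none fell and the other 18 did not pass.

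The response at 6 h differed from the mean of 18 and 24 h in 699 genes that were lower at 6 h than later (6.23%) and 385 that were higher (3.43%). This difference was tested in edgeR with each pair as a block, over all 30 libraries, because TMD8 has 1 pair at 6 h. The spread of that lone pair is assumed to be like that of the other lines. Against the 18 h pair alone 405 genes were lower and 123 higher, and without ribosomal RNA, MTRNR2L and histone genes 708 and 393.

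MYC was at 56.1, 148 and 146 CPM in AZD8186 and at 144, 132 and 131 CPM in DMSO. It was thus below DMSO at 6 h alone (log2 ratio −1.36, against 0.17 and 0.15 later), and the difference was −1.52 ± 0.12 (edgeR, adjusted p = 3.25e-06). The dendritic and B-cell activation gene CD83 was at 35.7, 117 and 85.2 CPM in AZD8186 and at 154, 103 and 75.9 CPM in DMSO (6 h difference −2.29 ± 0.19, edgeR adjusted p = 5.15e-06). DUSP2, a phosphatase of MAP kinases, was at 39.2, 85.5 and 60.7 CPM in AZD8186 and at 234, 133 and 99.3 CPM in DMSO, below DMSO throughout and farthest at 6 h (−1.91 ± 0.15; edgeR, adjusted p = 3.25e-06). SIAH2, EPOP, PLEK, NFKBIA and PIM3 were the other genes with the smallest p among those lower at 6 h, with log2 ratios at 6 h of −1.95 (EPOP) to −1.61 (PIM3) and later ratios of −0.47 (EPOP at 18 h) to 0.01 (PLEK at 18 h).

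In the opposite direction, ITGAL, the α chain of the integrin LFA-1 (chr16:30472658-30523185), was at 171, 62.7 and 46.1 CPM in AZD8186 and at 66.3, 94.3 and 95.6 CPM in DMSO. It was above DMSO at 6 h and below it later (difference 2.19 ± 0.25, edgeR adjusted p = 8.39e-05). GPER1, KAT6B, ARHGEF3 and DPYSL2 were also higher at 6 h than later. RNA18SN2, RNA18SN3 and RNA18SN4, identical copies of the 18S ribosomal RNA gene that cannot be told apart in counting, were at 3414, 778 and 428 CPM each in AZD8186 and at 417, 441 and 329.8 CPM in DMSO, so the AZD8186 library at 6 h stood alone.

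**Figure D4:**
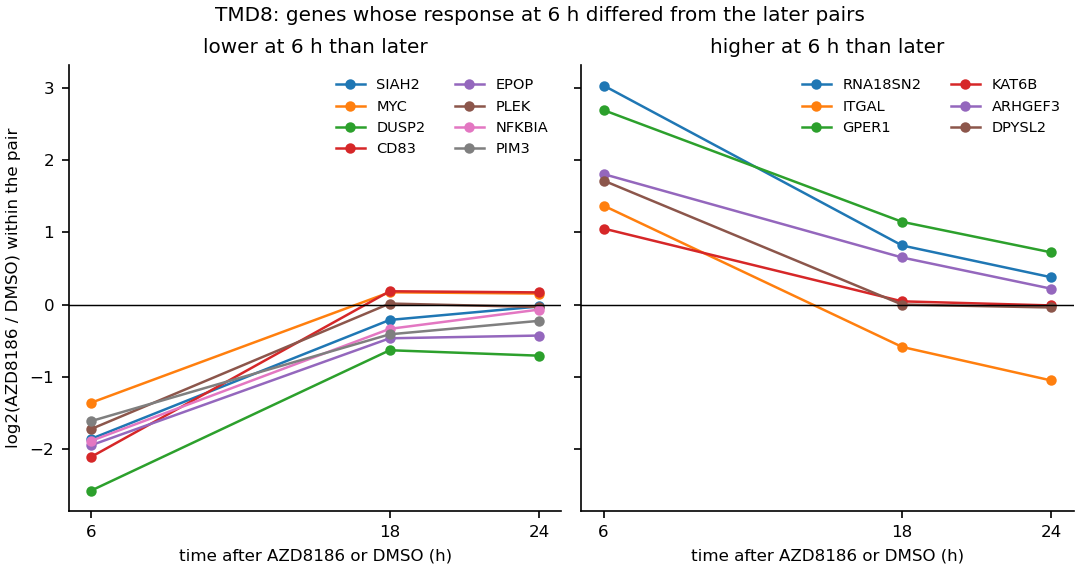
Log2 ratio of AZD8186 to DMSO (vertical axis) at 6, 18 and 24 h (horizontal axis, h) for 8 genes whose response was lower at 6 h than later (left) and 6 whose response was higher (right), 1 pair of libraries per point. MYC and CD83 lie below 0 at 6 h and at 0.15 to 0.18 later, and ITGAL lies at 1.37 at 6 h and at −0.59 and −1.05 later.

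Of 51 NF-κB targets, 30 responded lower at 6 h than later and none higher, where 6.23% of all genes were lower. Both arms differed between the times. Between 6 h and the later mean, the targets had a median log2 difference of −0.27 within AZD8186 (35 of 51 below 0) and of 0.59 within DMSO (47 of 51 above 0), while all genes had 0.0039 and 0.01. The DMSO cells thus had more of these transcripts at 6 h than later, and the AZD8186 cells less. STAT5A, a target named after its values were seen, had the same order, at 0.730, 1.08 and 1.74 CPM in AZD8186 and at 11.9, 2.99 and 3.20 CPM in DMSO. What sets the DMSO level at 6 h was not tested.

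MYC targets and ribosome biogenesis genes had their lowest medians at 6 h. None of 63 MYC targets and none of 70 ribosome biogenesis genes passed over the 3 pairs at TMM scaling, and none on centred TPM, while on TPM, where 785 of all genes were lower, 26 and 27 were. Of the MYC targets, 26 were lower at 6 h than later and 1 higher, where 6.23% and 3.43% of all genes were. Medians of the MYC targets were −0.55, −0.26 and −0.08 at 6, 18 and 24 h. Of 70 ribosome biogenesis genes 31 were lower at 6 h than later and none higher, beside the same shares of all genes. Their medians were −0.55, −0.20 and −0.05, and 66 of the 70 were below 0 at 6 h, 66 at 18 h and 45 at 24 h. Of the MYC targets 54, 60 and 42 of 63 were below 0 at 6, 18 and 24 h, so most members of both lists were below DMSO at 18 h as well. PPAN, a factor of the large ribosomal subunit, was at 64.9, 90.7 and 88.3 CPM in AZD8186 and at 213, 153 and 120.3 CPM in DMSO (6 h difference −1.11 ± 0.14; edgeR, adjusted p = 0.000136), although its span lies within a read-through with P2RY11. In the later pairs 15 of the 63 MYC targets and 9 of the 70 ribosome biogenesis genes were lower and none higher, where 9.7% of all genes were lower, so the share of the ribosome biogenesis genes was near that of all genes. On TPM the 24 h medians were −0.37 and −0.35 where all genes had −0.26. The promoter of SRM, spermidine synthase and a MYC target, is shown for its E-box CACGTG, in capitals (chr1:11060019-11060218, minus strand, GRCh38.p14, from RefSeq).
SRM: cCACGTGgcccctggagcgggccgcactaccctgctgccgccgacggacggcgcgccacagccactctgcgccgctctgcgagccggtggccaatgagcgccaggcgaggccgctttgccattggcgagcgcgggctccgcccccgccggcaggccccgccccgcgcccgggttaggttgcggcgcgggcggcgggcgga
CACGTG, which reads alike on both strands, was present in 20 of 50 MYC targets (40%) and in 33.9% of ribosome biogenesis genes with a promoter in the table, against 7.43% of all promoters, 10.7% of those of the tested genes and 4.76% of ribosomal protein genes. SRM was at 330.2, 432 and 458 CPM in AZD8186 and at 458, 619 and 523 CPM in DMSO, and its log2 fold change of −0.39 ± 0.11 over the 3 pairs did not pass (edgeR, adjusted p = 0.0957).

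Mitotic genes turned round between 6 h and the later times. Of 50 G2/M and mitosis genes, 47 were above 0 at 6 h, 45 below 0 at 18 h and 49 below 0 at 24 h, with medians of 0.42, −0.28 and −0.39 (0.31, −0.54 and −0.67 on TPM). None passed over the 3 pairs, and 29 were higher at 6 h than later, none lower, where 3.43% of all genes were. In the later pairs 38 were lower and none higher, where 9.7% and 12.2% of all genes were. With the spread of all 30 libraries 20 were lower and none higher. KIF4A, a mitotic kinesin chosen after its values were seen, was at 90.4, 45.2 and 50.2 CPM in AZD8186 and at 57.4, 54.8 and 67.7 CPM in DMSO (6 h difference 1.01 ± 0.20, edgeR adjusted p = 0.00481). CCNB1, cyclin B1, was at 242, 156 and 139 CPM in AZD8186 and at 247, 225 and 222 CPM in DMSO, level at 6 h and lower at 18 and 24 h (−0.60 ± 0.09; edgeR, adjusted p = 0.000252). Within AZD8186 49 of the 50 genes were higher at 6 h than in the later mean (median 0.61), against 13 of the 50 within DMSO (median −0.11).

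G1/S and DNA replication genes lay mostly below DMSO at 18 h but not at 24 h. Of 47, 28 were above 0 at 6 h, 44 below 0 at 18 h and 29 above 0 at 24 h, with medians of 0.08, −0.26 and 0.04. None of the 47 differed between 6 h and the mean of 18 and 24 h. E2F2 rose over the 3 pairs (1.24 ± 0.16, edgeR adjusted p = 0.0134), at 22.4, 14.9 and 19.4 CPM in AZD8186 and 7.19, 7.27 and 9.32 CPM in DMSO. At 18 and 24 h 9 were lower and 2 higher, where 9.7% and 12.2% of all genes were. The counts were 3 and 2 with the spread of all 30 libraries. The promoter of KIF4A is shown for the paired elements that mark many mitotic genes, in capitals a CCAAT box, read on the other strand as ATTGG, and downstream of it without overlap a CHR element TTTGAA (chrX:70289904-70290103, plus strand, GRCh38.p14, from RefSeq).
KIF4A: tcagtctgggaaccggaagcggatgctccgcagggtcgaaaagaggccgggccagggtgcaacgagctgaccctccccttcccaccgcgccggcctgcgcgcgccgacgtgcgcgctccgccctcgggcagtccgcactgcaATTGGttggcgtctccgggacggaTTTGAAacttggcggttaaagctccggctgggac
TTTGAA on either strand was present in 27 of 42 G2/M promoters in the table (64.3%), against 2.44% of G1/S promoters and 15.4% of all promoters, and CCAAT in 76.2%, 61% and 35.7%. Median log2 ratios of G2/M genes with TTTGAA were 0.46, −0.27 and −0.40 at 6, 18 and 24 h, and 0.37, −0.27 and −0.39 without it.

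**Figure D5:**
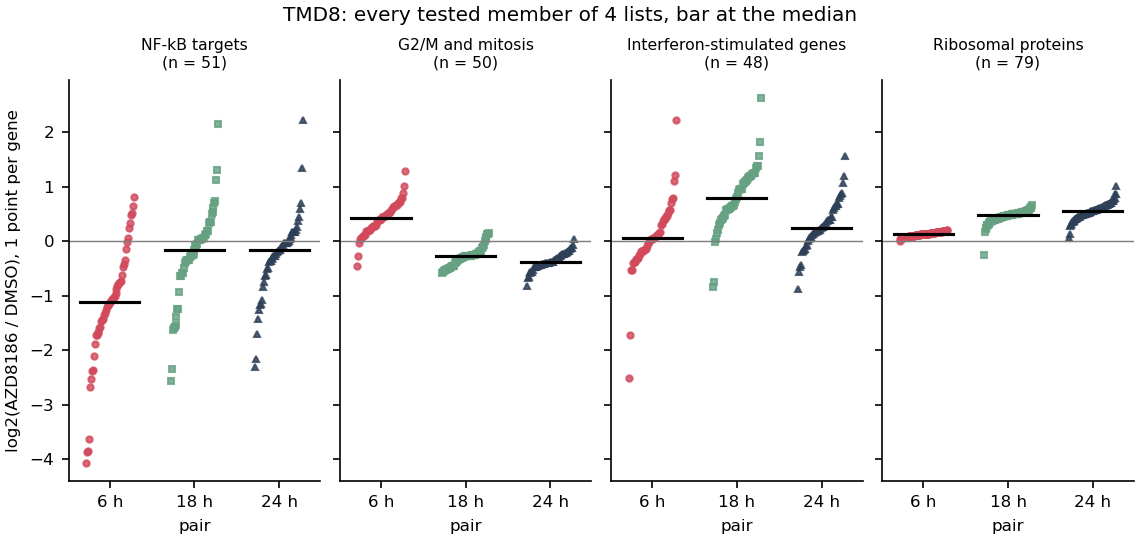
Log2 ratio of AZD8186 to DMSO (vertical axis) of every tested member of 4 lists in the 6, 18 and 24 h pairs, 1 point per gene in rising order, with a black bar at the median. G2/M genes lie mostly above 0 at 6 h and below it later, interferon-stimulated genes are highest at 18 h (median 0.80) and ribosomal protein genes form a narrow band that is higher at 18 and 24 h.

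Interferon-stimulated genes were highest relative to DMSO at 18 h. Of 48, 6 rose over the 3 pairs (DDX58, IFIT2, IFI6, OAS1, DDX60 and STAT2) and none fell, where 2.36% and 1.23% of all genes did. Medians were 0.05, 0.80 and 0.25 at 6, 18 and 24 h. At least 2-fold higher were 18 of 48 at 18 h and 3 at 24 h, against 3.8% and 1.77% of all genes. In the later pairs 33 were higher and 1 lower, where 12.2% and 9.7% of all genes were. The counts were 21 and 1 with the spread of all 30 libraries. On TPM the medians were −0.03, 0.44 and −0.07, where all genes had −0.05, −0.22 and −0.26. Less the median of all genes they were 0.02, 0.67 and 0.19, so the signs at 6 and 24 h stayed above 0. IFI6 was at 6.09, 23.7 and 28.9 CPM in AZD8186 and at 4.06, 9.86 and 13.8 CPM in DMSO, rising with time in both arms (1.02 ± 0.16; edgeR, adjusted p = 0.0232). The RNA sensor DDX58 (RIG-I) was at 19.4, 28.1 and 23.2 CPM in AZD8186 and at 11.2, 11.9 and 13.1 CPM in DMSO, without overlap (0.95 ± 0.14, edgeR adjusted p = 0.0183). The promoter of IFI6 is shown because it holds 3 matches to the interferon response element (GAAA, 2 bases of any kind, GAAA), in capitals (chr1:27672193-27672392, minus strand, GRCh38.p14, from RefSeq).
IFI6: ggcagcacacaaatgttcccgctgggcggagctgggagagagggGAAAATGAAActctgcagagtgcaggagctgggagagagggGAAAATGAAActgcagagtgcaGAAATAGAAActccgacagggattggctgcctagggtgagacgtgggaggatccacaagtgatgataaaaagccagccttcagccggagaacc
Searched on both strands, that element was present in 24 of 37 interferon-stimulated genes (64.9%) with a promoter in the table, against 3.65% of all promoters and 0 of 14 MHC class II genes. Genes with it had medians of 0.07, 0.86 and 0.30, and those without it 0.06, 0.59 and 0.25.

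MHC class II genes were higher mostly at the later times. CTSS, a protease of the invariant chain, rose over the 3 pairs (0.63 ± 0.09; edgeR, adjusted p = 0.0208) and CTSH, also a lysosomal protease, fell (−0.55 ± 0.10, edgeR adjusted p = 0.0312), and the other 15 of 17 did not pass. In the later pairs 11 were higher and 1 lower, where 12.2% and 9.7% of all genes were. Lower at 6 h than later were 5 of the 17, against 6.23% of all genes. CD74, the invariant chain, was at 3216, 3902 and 3771 CPM in AZD8186 and at 2708, 2457 and 2414 CPM in DMSO (later response 0.66 ± 0.10; edgeR, adjusted p = 0.000201). CIITA, the class II transactivator, had log2 ratios of −1.01, 0.36 and 0.04.

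Ribosomal protein genes formed the most uniform list. Of 79, all 79 were above 0 at 6 h, 78 at 18 h and 79 at 24 h, with medians of 0.12, 0.47 and 0.55, and 77 were called higher at 18 and 24 h but none over the 3 pairs. Of all genes 12.2% were called higher at 18 and 24 h. On TPM the medians were 0.04, 0.20 and 0.25 where all genes had −0.05, −0.22 and −0.26. RPL31 was at 1716, 1772 and 1489 CPM in AZD8186 and at 1531, 1196 and 864 CPM in DMSO. The AZD8186 level changed little with time and the DMSO level was lower at each later time, and over the list the median log2 difference between 6 h and the later mean was 0.09 within AZD8186 and 0.48 within DMSO. Without ribosomal protein genes in the totals, 119 genes were lower and 248 higher over the 3 pairs.

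Set against the mean response of OCI-Ly10, HT and K422 at the same times, with the pair as a block, 162 genes were lower in TMD8 (1.44%) and 153 higher (1.36%). The genes with the smallest p among the lower ones were TRAF1, UBALD2, SLC2A5, EMILIN2, OSBPL10 and PALLD. TRAF1 had a mean log2 ratio of −2.15 ± 0.47 in TMD8 (SD, n = 3 pairs), against −1.17 ± 0.34 in OCI-Ly10, −0.09 ± 0.12 in HT and 0.37 ± 0.08 in K422, and the difference was −1.92 ± 0.20 (edgeR, adjusted p = 0.000615). EMILIN2 had −1.01 ± 0.05 in TMD8, −0.17 ± 0.16 in OCI-Ly10, 0.87 ± 0.29 in HT and 0.52 ± 1.02 in K422. UBALD2 and SLC2A5 had mean log2 ratios of −0.18 ± 0.15 and −0.27 ± 0.16 in TMD8, −0.85 ± 0.20 and −0.47 ± 0.18 in OCI-Ly10, 1.10 ± 0.08 and 0.82 ± 0.14 in HT and 1.88 ± 0.02 and 2.71 ± 1.07 in K422. Set against OCI-Ly10 alone, UBALD2 passed in the opposite direction (0.68 ± 0.12, edgeR adjusted p = 0.0306) and SLC2A5 did not pass (0.20 ± 0.16; edgeR, adjusted p = 0.8).

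Among genes with a higher response in TMD8, LIMK1, a kinase of cofilin, was at 180.2, 244 and 194 CPM in AZD8186 and at 75.5, 91.1 and 93.7 CPM in DMSO. Its mean log2 ratio was 1.24 ± 0.19 in TMD8, 0.56 ± 0.23 in OCI-Ly10, −0.23 ± 0.14 in HT and −0.29 ± 0.22 in K422 (difference 1.22 ± 0.13, edgeR adjusted p = 0.000615). Against OCI-Ly10 alone LIMK1 lost the call. MGAT3, DUSP5, DOT1L, SIT1 and CORO7, whose span is shared with the read-through CORO7-PAM16, were the others. PIK3CG differed by 1.23 ± 0.17 (edgeR, adjusted p = 0.00195), at 1.29 ± 0.54 in TMD8, 0.40 ± 0.08 in OCI-Ly10, 0.22 ± 0.08 in HT and −0.57 ± 0.06 in K422. The B-cell surface gene MS4A1, coding for CD20, differed by 0.94 ± 0.16 (edgeR, adjusted p = 0.00666), with 0.47 ± 0.05 in TMD8, 0.14 ± 0.06 in OCI-Ly10, −0.77 ± 0.20 in HT and −0.82 ± 0.57 in K422, and did not pass against OCI-Ly10 alone (0.34 ± 0.19; edgeR, adjusted p = 0.682).

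Against OCI-Ly10 alone 7 genes were lower and 19 higher in TMD8. CCL22 was among the lower ones, with −2.39 ± 0.26 in TMD8 and −0.68 ± 0.40 in OCI-Ly10 (difference −1.73 ± 0.23; edgeR, adjusted p = 0.0215), and EMILIN2 differed by −0.83 ± 0.14 (edgeR, adjusted p = 0.0306). SLC1A4 (1.25 ± 0.18, adjusted p = 0.0215), SIT1 (1.03 ± 0.18, adjusted p = 0.0306) and DOT1L (0.70 ± 0.11, adjusted p = 0.0215) were higher in TMD8 than in OCI-Ly10 in edgeR. TRAF1 (−1.02 ± 0.24, edgeR adjusted p = 0.127) did not pass between the ABC lines. Set against the mean of the other lines, 5 of 19 germinal center genes and 5 of 51 NF-κB targets had a lower response in TMD8 and none a higher one, where 1.44% of all genes were lower. That mean includes the GCB lines HT and K422, whereas against OCI-Ly10 alone 7 of all 11214 genes were lower. Of 36 ATF4 targets and amino acid transport genes 5 had a higher response and 1 a lower one, and of 40 B-cell receptor signaling genes 4 and 2, where 1.36% of all genes were higher.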

How the data were processed

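The labels name the NucleoSpin RNA Plus kit for RNA and HISAT2 and RSEM, without versions, for alignment to GRCh38.p12 and counting, and a company did the sequencing. Deposited by the authors, the expected count of each of 21112 RefSeq genes is RSEM's estimate without normalization, and 23.7% to 27.4% of genes per TMD8 library held a value that was not whole. The TPM deposited by the authors divide counts by effective length and library total, and served for markers and as an alternative. FPKM were not used. The series description calls the controls untreated, while the labels say DMSO. Per the labels all lines grew in RPMI-1640, while the study's methods name another medium for TMD8.

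Counts were rounded, filtered by edgeR's filterByExpr (minimum count 10, total 15) and TMM-normalized. The test was edgeR's quasi-likelihood F test (version 4.0.16, under R 4.3.3), called at a Benjamini-Hochberg adjusted p under 0.05. Terms were time point and treatment for the 6 libraries (2 residual degrees of freedom) and the 4 later ones (1). For the 6 h difference (30 libraries, 7) and the difference from the other lines (24 libraries at 6, 18 and 24 h, 8) they were the pair as a block and treatment per line. Labels pair libraries by time: deviations of same-time libraries from their arm's mean correlated at 0.26 to 0.36. Single-pair log2 ratios are differences of log2 CPM, prior count 2. With 3 pairs an exact two-sided permutation of signs cannot go below p = 0.25. Fits were tested on simulated data.

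Named genes are those the paper names for ABC cells, the class I PI3K catalytic subunits, the called genes at 5 CPM or more and 1 direction in all pairs with the 12 largest fold changes each way, the 4 smallest p of each list, and at 5 CPM the 8 smallest p each way of the 6 h difference and the 6 of the line difference. Members, 32 gene lists and tests were chosen with earlier results of these data known. Mitochondrially encoded genes are not analysed here, and 1 gene that the rule names is not reported here. Alternatives were DESeq2 1.42.0, limma-voom 3.58.1, log2(TPM + 1) and log2(TPM + 0.1) by limma, other filters, terms and thresholds, and leaving out pairs or gene classes. Chosen after seeing the data were 3 of them: centred TPM, the 6 h difference without ribosomal protein genes (703 lower, 387 higher) and the line difference without the TMD8 6 h pair. Gene positions are from GENCODE 29 and promoters from RefSeq, for 680 of 844 tested list genes. Tables and plots were made in Python 3.11.15 with matplotlib 3.10.9, numpy 2.4.6 and pandas 2.3.3.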

Additional observations from a re-analysis of the deposited data

Results flagged for a closer look

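The response at 6 h differed from that at 18 and 24 h in a test of the difference itself (edgeR, log2 scale) for the genes with the smallest p in each direction. It was lower at 6 h for SIAH2 (−1.74), MYC (−1.52), DUSP2 (−1.91), CD83 (−2.29), EPOP (−1.50), PLEK (−1.71), NFKBIA (−1.68) and PIM3 (−1.30). It was higher at 6 h for RNA18SN2, RNA18SN3 and RNA18SN4 (2.44 each), ITGAL (2.19), GPER1 (1.76), KAT6B (1.04), ARHGEF3 (1.38) and DPYSL2 (1.76). The AZD8186 library at 6 h also had the largest share of ribosomal RNA, 4.35%, against 2.69% in its DMSO library, and the part of this in the other differences was not tested beyond leaving those genes out, which left 708 lower and 393 higher genes against 699 and 385.

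The response of TMD8 differed from the mean of the other 3 lines, again by a test of the difference. It was lower for TRAF1 (−1.92), UBALD2 (−0.90), SLC2A5 (−1.49), EMILIN2 (−1.51), OSBPL10 (−1.65) and PALLD (−1.97). It was higher for MGAT3 (1.23), LIMK1 (1.22), DUSP5 (1.15), DOT1L (0.79), SIT1 (1.30) and CORO7 (0.97). Against OCI-Ly10 alone, EMILIN2, DOT1L and SIT1 kept the call, 7 lost it, SLC2A5 turned without passing (0.20) and UBALD2 passed in the opposite direction (0.68; edgeR, adjusted p = 0.0306).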

How the results depend on the processing

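Over the 3 pairs, counts of lower and higher genes were 271 and 425 by DESeq2's own test, 237 and 436 with no filter on low counts, 81 and 153 at 5 CPM in 3 libraries, 79 and 166 without the time term (no replicate block), 1014 and 1231 with the spread of 30 libraries, 959 and 144 on log2(TPM + 0.1), 785 and 123 on log2(TPM + 1), 20 and 29 at an adjusted p under 0.01 and 363 and 575 under 0.1, against 138 and 265. Leaving out 1 pair gave 6 to 1088 lower and 5 to 1364 higher. Among single genes over the 3 pairs, JUND turned to 0.0073 without the time term, and leaving out 1 pair gave JUND −0.12 to 0.16, BCL2L1 −0.66 to 0.013, RELA −0.089 to 0.12 and NFKB1 −0.66 to 0.11. None of the 4 passed over the 3 pairs. Of the values of named genes over the 3 pairs under these alternatives, 1167 kept their side of the threshold, 220 lost it, 29 gained it and 5 turned. The 6 h difference of named genes kept its side in all 125 values, with 405 and 123 genes against 18 h alone. Against the other lines, counts were 369 and 305 with their 12 h pairs, 908 and 812 at 18 and 24 h alone, 7 and 19 against OCI-Ly10 alone and 231 higher without the TMD8 6 h pair, against 162 and 153, and of the 12 named genes UBALD2 (0.68, adjusted p = 0.0306 in edgeR) and SLC2A5 (0.20) turned against OCI-Ly10, 7 lost the call and 3 kept it. The causes were not tested. At an unadjusted p under 0.05, 1128 genes were lower and 1424 higher over the 3 pairs. Genes near 1 CPM, such as LAG3, rest on few counts.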
